A study of Mus musculus with 22 samples.

Results

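The transcripts described here are those of the interleukin-4 (IL-4) receptor, of the transcription factor it activates and of genes used as markers of alternatively activated macrophages. They comprise 9 genes, namely Il4ra, Il13ra1, Il2rg, Stat6, Arg1, Chil3, Retnla, Mrc1 and Ccl24, out of 18403 tested genes. All probes whose RefSeq accession mapped to these symbols were taken, which gave 12 of 28136 tested probes, since Stat6 was represented by 3 probes and Il4ra by 2 probes. All 12 passed the filter on dim signals, which required a probe to be well above background on at least 3 arrays.

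IL-4 binds the receptor chain IL-4Rα, encoded by Il4ra, which then pairs either with the common gamma chain, encoded by Il2rg, or with IL-13Rα1, encoded by Il13ra1. The pair with IL-13Rα1 also responds to IL-13. The receptor acts through Janus kinases on the transcription factor STAT6, and in mouse macrophages STAT6 drives genes of alternative activation such as those for the arginine-degrading enzyme arginase 1 (Arg1), the chitinase-like protein Ym1 (Chil3), the secreted protein RELMα (Retnla), the mannose receptor CD206 (Mrc1) and the eosinophil chemoattractant eotaxin-2 (Ccl24).

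The samples were bone marrow-derived macrophages (BMDM) of C57BL/6 mice labelled as male and 10 to 14 weeks old. The cells were differentiated with 10 ng/ml macrophage colony-stimulating factor (M-CSF) for 9 days, and no group received IL-4 according to the labels. Wild-type (wt) BMDM, BMDM deficient in the kinase MK2 (MK2-/-) and BMDM deficient in both MK2 and its relative MK3 (MK2/3-/-) were kept for 360 min in medium or with 100 ng/ml lipopolysaccharide (LPS), the cell wall component of Gram-negative bacteria that activates Toll-like receptor 4. There were 3 LPS-treated and 4 medium-treated wt arrays, 4 and 4 MK2-/- arrays, and 4 and 3 MK2/3-/- arrays. The design text of the series gives 1 replicate fewer for medium-treated MK2-/- BMDM, but the array names it lists there are those of the 3 LPS-treated wt arrays, and the groups used here follow the sample labels. MK2 and MK3 are kinases activated by p38, and the mice carried the deletions in all cells, so that the macrophages had also developed without the kinases.

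Median processed signals ranged from 32.7 to 108 between arrays, and between 61.1% and 82.8% of the probes exceeded the background clearly (well above background by the scanner software). Within each treatment, Mapkapk2, which encodes MK2, lay lower on every MK2-/- and MK2/3-/- array than on every wt array, and Mapkapk3, which encodes MK3, lay lower on every MK2/3-/- array than on all others. Whether these probes lie inside the deleted parts is not given in the sources used here. All 7 macrophage markers, among them Adgre1 (F4/80) and Csf1r, were well above background on all 22 arrays. Replicate 3 of the LPS-treated and replicate 3 of the medium-treated MK2-/- BMDM had a mean log2 signal of Y-linked genes of 2.08 and 2.34, compared with 6.86 to 8.83 on the other 20 arrays, although all mice were labelled as male. LPS-treated MK2-/- replicate 3 also had 2927 spots marked as non-uniform or outlying, beside 115 to 261 on the other arrays. Its share of probes well above background was the highest, at 82.8%. On medium-treated wt replicate 4 the log2 signal of Il6, a cytokine induced by LPS, was 13.4, compared with 6.41 to 10.0 on the other 3 medium-treated wt arrays. All arrays of a genotype lay on 1 slide, so a direct comparison of genotypes is also one of slides, and these cannot be told apart, whereas a constant shift of a slide drops out when LPS responses are compared. Since RNA of whole cultures was measured, fewer cells of a type and less RNA per cell cannot be told apart.

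RefSeq promoter sequences were at hand for 7 of the 9 genes, not including Arg1 and Ccl24. Shown are the 250 bases before the start of 3 of them (build GRCm38.p6), because Chil3 and Retnla are textbook STAT6 targets whose windows hold letters of a STAT site, and because Il4ra carries the main result described below. The windows are chr7:125552021-125552270 (plus strand) for Il4ra, chr3:106167565-106167814 (minus strand) for Chil3 and chr16:48842359-48842608 (plus strand) for Retnla. Capitals mark copies of GCATGNAAAT in Il4ra, TTCNNNGAA in Chil3 and TTCNNNNGAA in Retnla.
Il4ra: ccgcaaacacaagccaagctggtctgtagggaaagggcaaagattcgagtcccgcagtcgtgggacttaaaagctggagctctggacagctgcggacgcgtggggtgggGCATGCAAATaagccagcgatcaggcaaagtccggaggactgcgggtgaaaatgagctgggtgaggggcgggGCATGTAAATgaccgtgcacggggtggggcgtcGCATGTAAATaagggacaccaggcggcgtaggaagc
Chil3: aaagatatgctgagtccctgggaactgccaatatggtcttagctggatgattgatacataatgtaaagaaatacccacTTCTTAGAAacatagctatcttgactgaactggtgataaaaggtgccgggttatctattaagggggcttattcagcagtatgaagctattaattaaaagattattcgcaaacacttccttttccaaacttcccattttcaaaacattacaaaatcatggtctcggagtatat
Retnla: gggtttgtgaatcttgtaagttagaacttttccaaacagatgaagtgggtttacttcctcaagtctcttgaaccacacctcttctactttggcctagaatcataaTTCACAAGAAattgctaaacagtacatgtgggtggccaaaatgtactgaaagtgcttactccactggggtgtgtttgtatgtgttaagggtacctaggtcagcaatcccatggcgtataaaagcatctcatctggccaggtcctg

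Both STAT motifs are palindromic in their fixed letters, and all motifs were searched on both strands in windows of the same length. TTCNNNGAA was found in 7.02% and TTCNNNNGAA in 5.85% of the 32851 promoters in the table, and either in 12.4%, so that 2 matches among 7 promoters is a description and no enrichment. The first bases of the matches lay 172 bases (Chil3) and 145 bases (Retnla) before the start. The promoter of Il4ra held GCATGNAAAT 3 times, starting 141, 69 and 36 bases before the start, and its first copy overlaps the octamer ATGCAAAT. It was chosen after the sequence had been read, as the rarer of 2 sets of letters that occurred 3 times in this window, was present in 0.244% of the promoters, and only the Il4ra promoter held at least 3 copies. The letters of an AP-1 site (TGANTCA, in 6.75% of promoters) and of the NF-κB consensus (in 7.25%) were in none of the 7 windows.

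LPS raised the transcripts of all 3 receptor chains in all 3 genotypes and lowered that of Stat6, whereas of the 5 target genes only Ccl24 passed the test, in MK2-/- BMDM. With a letter of the array names as an additional term, chosen after the values had been seen, Chil3 and Ccl24 passed in all 3 genotypes. Counting each gene by its brightest probe, 4 of 9 genes were called in wt (3 higher, 1 lower), 5 of 9 in MK2-/- (4 higher, 1 lower) and 4 of 9 in MK2/3-/- BMDM (3 higher, 1 lower). Among all tested genes counted in this way, 44.2%, 47.8% and 51% were called in the same comparisons, so the number of members called lay near the background. By direction, 19.1%, 18.4% and 20.7% of all genes were called higher. The median log2 difference of the 9 genes was 1.1, 0.89 and 0.61, beside -0.05, -0.03 and -0.03 for all genes. Each of these medians of 9 is the value of a single gene that was not called. In wt it was Retnla, which was not well above background on any wt array, and in the other genotypes Chil3. The threshold for a call was an adjusted p of 0.05 (limma, two-sided, Benjamini-Hochberg over all tested probes), and the values below are log2 signals after quantile normalisation. The arrays compare the levels of a probe between samples and not the levels of different probes.

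**Figure D1:**
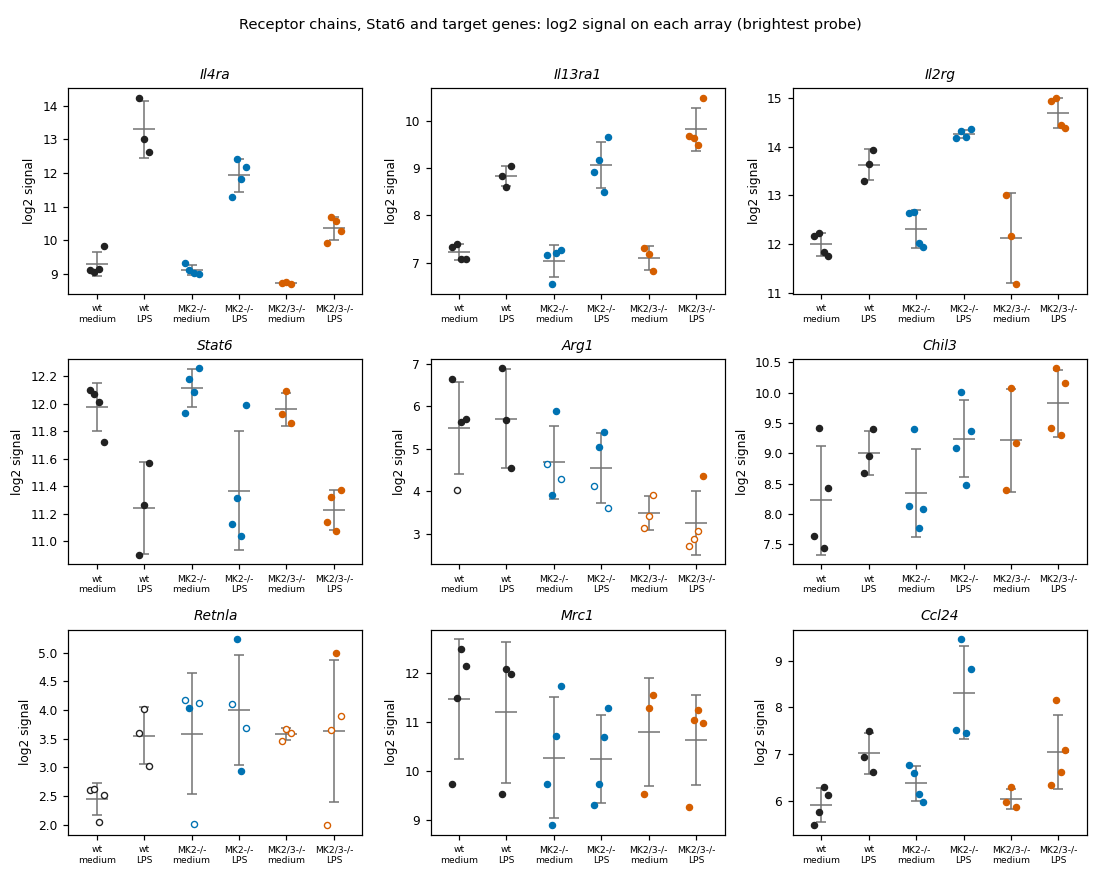
Log2 signal of each of the 9 genes (brightest probe) on every array, by group. Each dot is an array, open dots mark arrays on which the probe was not well above background, and the grey bars give mean and SD of a group. Il4ra, Il13ra1 and Il2rg of the LPS-treated arrays lie above those of the medium-treated arrays of the same genotype without overlap, whereas the dots of Mrc1 spread widely and overlap between all groups.

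Il4ra, the receptor chain that binds IL-4, showed a graded response on its brighter probe (A_55_P2017789). In wt BMDM the log2 signal was 9.12, 9.07, 9.15 and 9.82 in medium and 14.2, 13.0 and 12.6 with LPS. The MK2-/- arrays gave 9.34, 9.13, 9.03 and 9.01 in medium and 11.3, 12.4, 11.8 and 12.2 with LPS. The MK2/3-/- arrays gave 8.74, 8.77 and 8.70 in medium and 9.93, 10.7, 10.6 and 10.3 with LPS. Medium-treated arrays lay close together in all genotypes, although those of MK2/3-/- BMDM (8.70 to 8.77) lay below all others (9.01 or higher). The LPS-treated arrays of the 3 genotypes formed 3 ranges that did not overlap, highest in wt and lowest in MK2/3-/- BMDM.

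LPS raised this Il4ra signal by 4.01 on the log2 scale in wt BMDM (SE 0.32, 16.1-fold, adjusted p = 1.29e-08, limma), by 2.80 in MK2-/- BMDM (SE 0.30, 6.97-fold, adjusted p = 2.18e-07) and by 1.63 in MK2/3-/- BMDM (SE 0.32, 3.09-fold, adjusted p = 0.000294). Under LPS, the level in MK2-/- BMDM was 2.57-fold lower than in wt BMDM (log2 difference -1.36, SE 0.32, adjusted p = 0.0130). The level in MK2/3-/- BMDM was 7.64-fold lower than in wt (log2 difference -2.93, SE 0.32, adjusted p = 2.52e-05) and 2.97-fold lower than in MK2-/- BMDM (log2 difference -1.57, SE 0.30, adjusted p = 0.00169). In medium, the log2 differences from wt were -0.16 in MK2-/- (95% confidence interval -0.78 to 0.46) and -0.55 in MK2/3-/- BMDM (-1.22 to 0.12), and neither was called. With the methods' t-test and Benjamini-Hochberg adjustment, none of the 3 differences under LPS passed (adjusted p = 0.173, 0.0600 and 0.0555 in the order given), and with only the groups compared in the limma fit that of MK2-/- from wt did not (adjusted p = 0.0940). Without LPS-treated wt replicate 1, which had the highest signal, the difference between MK2-/- and wt BMDM under LPS was -0.89 with an adjusted p of 0.0673.

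The test of the difference of the LPS response itself called Il4ra between MK2/3-/- and wt BMDM. The response was smaller by 5.20-fold (log2 difference -2.38, SE 0.45, 95% confidence interval -3.33 to -1.43, adjusted p = 0.0231), and Il4ra was the only one of the 9 genes called there, where 1.06% of all genes were called. The response of MK2-/- BMDM differed from that of wt by -1.20 (SE 0.44, adjusted p = 0.510) and the response of MK2/3-/- differed from that of MK2-/- BMDM by -1.18 (SE 0.44, adjusted p = 0.429), and neither passed. In these comparisons 0% and 0.0815% of all genes were called. Of the 9 genes, Il4ra alone had an unadjusted p below 0.05 in these comparisons, and 2167 and 2464 of all probes did. The call between MK2/3-/- and wt BMDM was lost when any 1 of the 3 medium-treated MK2/3-/- arrays was left out, with log2 differences between -2.40 and -2.36 and adjusted p-values of 0.0630, 0.0643 and 0.0566. Without the arrays that stood apart (medium-treated wt replicate 4 and the MK2-/- arrays with low Y-linked signal) the difference was -2.56, with an adjusted p of 0.0507.

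The second Il4ra probe (A_55_P1966189) rose with LPS too but did not share the order of the genotypes. In wt BMDM its log2 signal was 7.89, 8.06, 8.30 and 8.47 in medium and 10.6, 10.3 and 10.2 with LPS. On MK2-/- arrays it was 8.41, 7.49, 7.96 and 8.11 in medium and 9.55, 10.2, 9.48 and 10.1 with LPS. On MK2/3-/- arrays it was 8.42, 8.0 and 7.82 in medium and 10.6, 11.8, 8.18 and 10.1 with LPS. The LPS-treated MK2/3-/- arrays thus ran from a value within the range of the medium-treated arrays (replicate 3) to the highest value of all 22 arrays (replicate 2), and their SD was 1.49, compared with 0.19 in LPS-treated wt and 0.36 in LPS-treated MK2-/- BMDM.

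The rise of the second Il4ra probe with LPS was 2.16 in wt (SE 0.51, adjusted p = 0.00215), 1.84 in MK2-/- (SE 0.47, adjusted p = 0.00338) and 2.09 in MK2/3-/- BMDM (SE 0.51, adjusted p = 0.00207). The SE comes from a spread shared by all 6 groups. With only the groups compared in the limma fit, the MK2/3-/- call was lost (adjusted p = 0.0586), as it was with the methods' t-test (adjusted p = 0.13). Under LPS, it differed between MK2/3-/- and wt BMDM by -0.17 (95% confidence interval -1.24 to 0.90, adjusted p = 0.845) and between MK2-/- and wt BMDM by -0.52 (-1.59 to 0.56, adjusted p = 0.531). The interval for MK2/3-/- did not reach the difference of -2.93 seen with the brighter probe. The difference of the response between MK2/3-/- and wt BMDM was -0.07 (-1.58 to 1.45, adjusted p = 0.993).

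To test the disagreement directly, the log2 value of the second probe was subtracted from that of the brighter probe on each array, and the result was fitted with the same 6-group model for all 5546 such pairs of probes of one gene. This difference was 3.68, 2.75 and 2.43 in LPS-treated wt, 1.75, 2.24, 2.35 and 2.08 in LPS-treated MK2-/-, and -0.69, -1.08, 2.38 and 0.15 in LPS-treated MK2/3-/- BMDM. In medium it ranged from 0.32 to 1.64 over all 11 arrays. Replicate 3 of the LPS-treated MK2/3-/- BMDM, the array with the low signal of the second probe, lay just above the highest LPS-treated MK2-/- array and below all LPS-treated wt arrays, and the other 3 lay below all medium-treated arrays.

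Under LPS, the within-gene difference was lower in MK2/3-/- than in wt BMDM (log2 difference -2.76, SE 0.54, adjusted p = 0.00243) and lower than in MK2-/- BMDM (log2 difference -1.91, SE 0.50, adjusted p = 0.0191), where 15.3% and 10.8% of all probe pairs were called. Between MK2-/- and wt BMDM it was -0.85 (SE 0.54, adjusted p = 0.335; 9.5% of pairs called). An exact two-sided permutation test over arrays, which does not borrow the spread from other groups, gave p = 0.0571 for MK2/3-/- against wt (35 splits, smallest possible p 0.0286), p = 0.0286 for MK2-/- against wt and p = 0.143 for MK2/3-/- against MK2-/-, and adjusted over these 3 comparisons p = 0.0857, 0.0857 and 0.143. In wt BMDM, LPS raised the brighter probe by 1.85 more than the second (SE 0.54, adjusted p = 0.0174; 24.5% of pairs called). When the 2 probes were averaged, the difference in the response of MK2/3-/- and wt BMDM was -1.22 and not called (adjusted p = 0.248), and the differences of MK2-/- from wt and of MK2/3-/- from MK2-/- BMDM under LPS were -0.94 and -0.61 and not called either (adjusted p = 0.0698 and 0.202). Both probes carry an accession of the same RefSeq transcript, the annotation lists 2 transcripts for the gene, and the probe sequences are not used here, so where on the gene each probe lies was not tested. The statements on Il4ra by genotype therefore hold for the brighter probe.

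**Figure D2:**
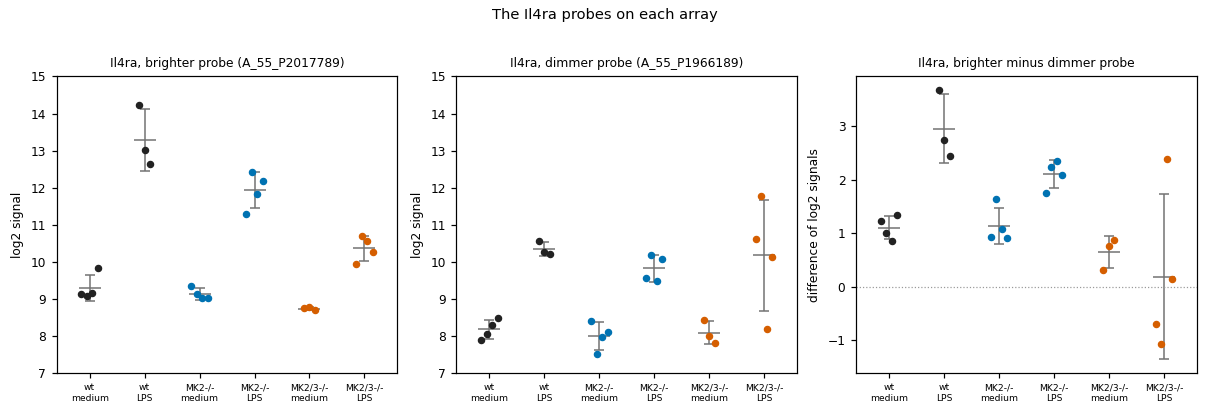
Log2 signal of the brighter Il4ra probe (left), of the second probe (middle) and their difference on each array (right), by group, with mean and SD as grey bars. Under LPS the brighter probe falls from wt to MK2/3-/- BMDM, whereas the second probe spreads from 8.18 to 11.8 in MK2/3-/- BMDM and the difference falls from 2.43 or more in wt to below 0 on 2 MK2/3-/- arrays.

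Il13ra1, the chain that forms the receptor shared by IL-4 and IL-13, moved in the other direction between genotypes. Its log2 signal was 7.32, 7.39, 7.07 and 7.08 in medium-treated and 8.84, 8.61 and 9.04 in LPS-treated wt BMDM. Values of MK2-/- BMDM were 7.16, 6.54, 7.19 and 7.26 in medium and 8.91, 9.17, 8.49 and 9.66 with LPS. Values of MK2/3-/- BMDM were 7.31, 7.17 and 6.81 in medium and 9.68, 9.64, 9.48 and 10.5 with LPS. All LPS-treated MK2/3-/- arrays lay above all LPS-treated wt arrays, while the medium-treated arrays of the genotypes overlapped.

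LPS raised Il13ra1 by 1.61 in wt (SE 0.27, 3.06-fold, adjusted p = 8.66e-05), by 2.02 in MK2-/- (SE 0.25, 4.06-fold, adjusted p = 1.68e-06) and by 2.73 in MK2/3-/- BMDM (SE 0.27, 6.62-fold, adjusted p = 1.01e-07). Under LPS its level in MK2/3-/- BMDM was 2.00-fold that of wt (log2 difference 1.00, SE 0.27, adjusted p = 0.0123). This call was lost without LPS-treated wt replicate 2 (log2 difference 0.89, adjusted p = 0.0524). The level was also higher than in MK2-/- BMDM by 0.77 (SE 0.25, adjusted p = 0.0490), a call that sat at the threshold and was lost in 28 of 40 other settings. The LPS response of Il13ra1 was larger in MK2/3-/- than in wt BMDM by 1.12 (95% confidence interval 0.32 to 1.92), which did not pass over all probes (adjusted p = 0.198).

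Il2rg, the common gamma chain shared by several cytokine receptors, had log2 signals of 12.2, 12.2, 11.8 and 11.8 in medium-treated and 13.3, 13.6 and 13.9 in LPS-treated wt BMDM. The MK2-/- values were 12.6, 12.7, 12.0 and 11.9 in medium and 14.2, 14.3, 14.2 and 14.4 with LPS. In MK2/3-/- BMDM they were 13.0, 12.2 and 11.2 in medium and 14.9, 15.0, 14.4 and 14.4 with LPS. Under LPS the ranges of the 3 genotypes did not overlap and were lowest in wt and highest in MK2/3-/- BMDM, the reverse of the brighter Il4ra probe.

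LPS raised Il2rg by 1.63 in wt (SE 0.32, adjusted p = 0.000382), by 1.94 in MK2-/- (SE 0.29, adjusted p = 1.85e-05) and by 2.56 in MK2/3-/- BMDM (SE 0.32, adjusted p = 1.58e-06). Under LPS, the level in MK2/3-/- BMDM was 2.09-fold that of wt (log2 difference 1.06, SE 0.32, adjusted p = 0.0213), and the difference of MK2-/- from wt was 0.63 (SE 0.32, adjusted p = 0.190). The call was lost without any 1 of 4 arrays. The log2 difference was then 0.90 without LPS-treated wt replicate 1 (adjusted p = 0.0973), 1.07 without wt replicate 2 (adjusted p = 0.0502), 0.98 without MK2/3-/- replicate 1 (adjusted p = 0.0557) and 0.96 without MK2/3-/- replicate 2 (adjusted p = 0.0565). The response of Il2rg in MK2/3-/- exceeded that in wt BMDM by 0.94 (95% confidence interval -0.001 to 1.87, adjusted p = 0.422).

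In total, 1 of 9 genes was called between MK2-/- and wt BMDM under LPS (Il4ra lower), 4 of 9 between MK2/3-/- and wt (Il13ra1 and Il2rg higher, Il4ra and Arg1 lower) and 2 of 9 between MK2/3-/- and MK2-/- BMDM (Il13ra1 higher, Il4ra lower). Of all genes, 11.6%, 24.9% and 13.3% were called in these comparisons. With only the groups compared in the fit, 2 of these 7 calls passed (Il4ra in MK2/3-/- BMDM against wt and against MK2-/-), and 0 did with the methods' t-test. In medium none of the 9 genes was called between genotypes (limma), beside 7.61% of all genes for MK2-/- against wt, 1.9% for MK2/3-/- against wt and 2.53% for MK2/3-/- against MK2-/-. At an unadjusted p below 0.05 there were 0, 1 (Arg1) and 0 genes, and the methods' t-test with Benjamini-Hochberg adjustment called 0 as well. The mean of a list of 5 dendritic cell markers moved together with Il13ra1 and Il2rg, but not every gene of the list did. Of its 5 genes, Zbtb46 and Ccr7 were well above background on all 22 arrays, Flt3 on 21, Cd209a on 13 and Xcr1 on 4. Cd209a had a lower mean with LPS than in medium (3.63 and 4.98 in wt, 4.52 and 5.58 in MK2/3-/- BMDM), which was not called. The mean log2 signal of the list ranged from 5.15 to 6.47 in medium over all genotypes, from 7.17 to 7.33 in LPS-treated wt, from 7.08 to 8.06 in MK2-/- and from 8.09 to 8.85 in MK2/3-/- BMDM. Under LPS the medians of the T cell and B cell marker lists were also highest in MK2/3-/- BMDM (8.97 and 6.16). They were 8.31 and 5.50 in wt and lower, 7.85 and 5.42, in MK2-/- BMDM. The median of the stromal list was highest in wt (9.16, beside 7.77 in MK2-/- and 7.92 in MK2/3-/-). The part of any of these cells in the result was not tested.

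**Figure D3:**
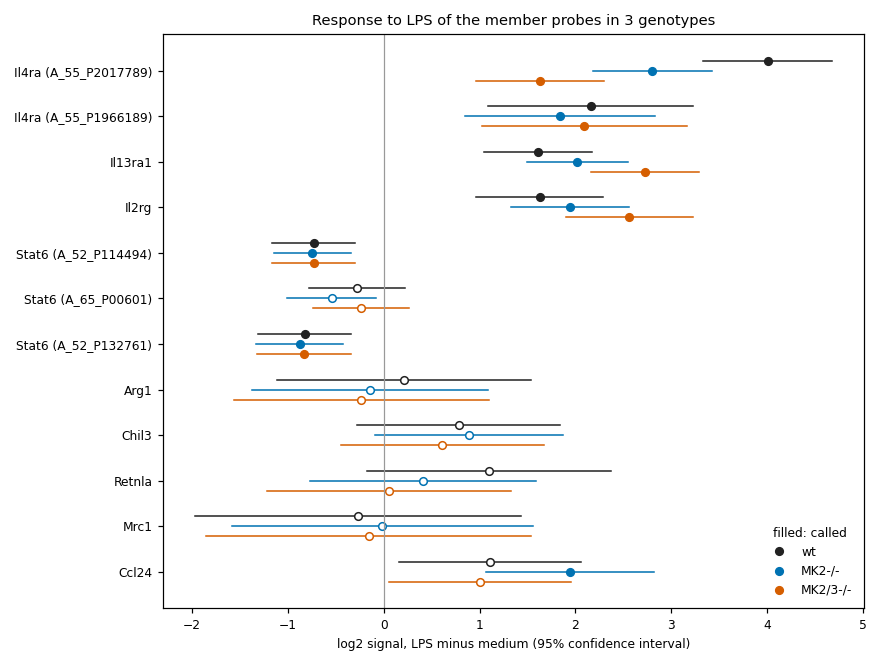
Log2 difference between LPS-treated and medium-treated BMDM for the 12 probes in wt, MK2-/- and MK2/3-/- BMDM, with 95% confidence intervals as lines. Filled dots passed the test. The brighter Il4ra probe runs from 4.01 in wt to 1.63 in MK2/3-/- BMDM, Il13ra1 and Il2rg run the other way, and the Stat6 probes lie below 0 in all genotypes.

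Stat6, the transcription factor downstream of the receptor, fell in all genotypes by a similar amount. On its brightest probe (A_52_P114494) the log2 signal was 12.1, 12.1, 12.0 and 11.7 in medium-treated and 10.9, 11.3 and 11.6 in LPS-treated wt BMDM. MK2-/- BMDM lay at 11.9, 12.2, 12.1 and 12.3 in medium and 11.1, 11.3, 11.0 and 12.0 with LPS. In MK2/3-/- BMDM it was 11.9, 12.1 and 11.9 in medium and 11.1, 11.3, 11.1 and 11.4 with LPS. The treatments did not overlap in wt and MK2/3-/- BMDM, and in MK2-/- BMDM LPS-treated replicate 4 reached the range of the medium-treated arrays.

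The log2 signal of Stat6 fell by 0.73 in wt (SE 0.21, adjusted p = 0.00804), by 0.75 in MK2-/- (SE 0.19, adjusted p = 0.00333) and by 0.73 in MK2/3-/- BMDM (SE 0.21, adjusted p = 0.00639). The difference of the response from wt was -0.02 in MK2-/- (95% confidence interval -0.61 to 0.58) and -0.001 in MK2/3-/- BMDM (-0.62 to 0.61). A further probe (A_52_P132761) fell by 0.83, 0.88 and 0.84 in the 3 genotypes (adjusted p = 0.00767, 0.00231 and 0.00574). The third probe (A_65_P00601) had log2 differences of -0.29, -0.54 and -0.24, none of which was called (adjusted p = 0.368, 0.0532 and 0.444). The 3 probes thus had the same sign in every genotype, and 2 of 3 passed. No Stat6 probe was called between genotypes. In wt BMDM the call on the brightest probe was lost without LPS-treated replicate 1 (log2 difference -0.56, adjusted p = 0.0548).

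Arg1, which turns arginine into ornithine and urea, gave a faint signal and was not called for LPS in any genotype. Its log2 signal was 6.65, 4.03, 5.62 and 5.70 in medium-treated and 6.90, 5.67 and 4.56 in LPS-treated wt BMDM. MK2-/- BMDM had values of 4.65, 3.92, 5.88 and 4.29 in medium and 4.14, 5.05, 5.39 and 3.61 with LPS, and in MK2/3-/- BMDM 3.14, 3.43 and 3.92 in medium and 2.72, 2.88, 3.06 and 4.37 with LPS. The probe was well above background on 6 of 7 wt arrays, on 4 of 8 MK2-/- arrays and on 1 of 7 MK2/3-/- arrays. Under LPS all 4 MK2/3-/- arrays lay below all 3 wt arrays.

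The log2 differences of Arg1 between LPS and medium were 0.21 in wt, -0.14 in MK2-/- and -0.24 in MK2/3-/- BMDM (adjusted p = 0.828, 0.878 and 0.793). Under LPS the level in MK2/3-/- BMDM was lower than in wt (log2 difference -2.45, SE 0.63, adjusted p = 0.00942), where only 1 of 4 MK2/3-/- arrays had a measured level so that no fold is given, and in MK2-/- BMDM the difference was -1.16 (SE 0.63, adjusted p = 0.229). In medium, where no MK2/3-/- array had the probe well above background, the level in MK2/3-/- BMDM was at least 4.01-fold lower than in wt, which did not pass (adjusted p = 0.105). Where a fold is given below as at least, each array of the dim group was given its own signal or the dimmest signal counted as well above background on it, whichever was higher. Such a limit covers the background only and not the spread between arrays. The call under LPS was lost without LPS-treated wt replicate 1 (log2 difference -1.86, adjusted p = 0.0692) and with scaling to the 75th percentile (-1.56, adjusted p = 0.0836). The difference had the same sign in medium as under LPS, and the difference of the response was -0.45 (SE 0.90, adjusted p = 0.933).

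Ccl24, a chemokine for eosinophils, rose with LPS most clearly in MK2-/- BMDM. Its log2 signal was 5.47, 5.75, 6.28 and 6.12 in medium-treated and 6.94, 7.49 and 6.61 in LPS-treated wt BMDM. For MK2-/- BMDM it was 6.75, 6.60, 6.15 and 5.97 in medium and 7.52, 9.47, 7.44 and 8.82 with LPS, and in MK2/3-/- BMDM 5.97, 6.28 and 5.86 in medium and 6.34, 8.15, 6.61 and 7.08 with LPS. LPS-treated arrays lay above medium-treated arrays without overlap in every genotype, and replicates 2 and 4 of the LPS-treated MK2-/- BMDM were the highest of all.

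The difference of Ccl24 between LPS and medium was 1.94 in MK2-/- BMDM (SE 0.42, 3.85-fold, adjusted p = 0.000747), 1.11 in wt (SE 0.45, adjusted p = 0.0567) and 1.01 in MK2/3-/- BMDM (SE 0.45, adjusted p = 0.0746). The larger value in MK2-/- BMDM is not shown to differ from the others, since the difference of the response was 0.84 against wt (95% confidence interval -0.46 to 2.13, adjusted p = 0.796). Under LPS, the level in MK2-/- BMDM differed from wt by 1.30 (SE 0.45, adjusted p = 0.0673) and the level in MK2/3-/- from MK2-/- BMDM by -1.27 (SE 0.42, adjusted p = 0.0515). Without the 2 MK2-/- arrays with low Y-linked signal these differences were 1.59 and -1.56 and both passed (adjusted p = 0.0412 and 0.0266).

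Chil3, the chitinase-like protein Ym1, had log2 signals of 7.63, 9.41, 7.43 and 8.42 in medium-treated and 8.67, 8.95 and 9.40 in LPS-treated wt BMDM. MK2-/- BMDM showed 8.13, 9.41, 7.76 and 8.09 in medium and 9.08, 10.0, 8.48 and 9.37 with LPS, and in MK2/3-/- BMDM 8.39, 10.1 and 9.17 in medium and 9.41, 10.4, 9.30 and 10.2 with LPS. The treatments overlapped in every genotype. The log2 differences between LPS and medium were 0.78 in wt (SE 0.51, adjusted p = 0.232), 0.89 in MK2-/- (SE 0.47, adjusted p = 0.133) and 0.61 in MK2/3-/- BMDM (SE 0.51, adjusted p = 0.349), and no comparison of genotypes was called. Of 10 pairs of an LPS-treated and a medium-treated array of the same genotype and the same letter in the array name, 10 had more Chil3 with LPS, by 0.32 to 1.52. With that letter as an additional term the LPS difference of Chil3 passed in wt, MK2-/- and MK2/3-/- BMDM (adjusted p = 0.000447, 0.000866 and 0.00368, limma).

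Mrc1, the mannose receptor, had log2 signals of 9.73, 11.5, 12.5 and 12.1 in medium-treated and 9.53, 12.1 and 12.0 in LPS-treated wt BMDM. The MK2-/- values were 9.73, 8.88, 10.7 and 11.7 in medium and 9.30, 9.72, 10.7 and 11.3 with LPS, and in MK2/3-/- BMDM 9.52, 11.3 and 11.6 in medium and 9.25, 11.0, 11.2 and 11.0 with LPS. The SD between arrays of a group was 1.23 in medium-treated wt and in medium-treated MK2-/- BMDM and between 0.90 and 1.44 in the other groups. The differences between LPS and medium were -0.27 in wt (95% confidence interval -1.97 to 1.43), -0.02 in MK2-/- (-1.59 to 1.56) and -0.16 in MK2/3-/- BMDM (-1.86 to 1.54). None of the 12 comparisons of Mrc1 was called.

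Retnla, the secreted protein RELMα, was barely detected. Its log2 signal ran from 1.99 to 5.24, and it was well above background on 4 of 22 arrays, of which 3 were MK2-/- and 1 was MK2/3-/-. It was not well above background on any wt array. The difference between LPS and medium of 1.1 in wt (adjusted p = 0.160) therefore lies between arrays without a measured level, and no comparison of Retnla was called.

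The spread of Mrc1 and Chil3 within groups followed a letter (a, b, c or e) that the array names carry and whose meaning is not given in the sources used here. In the 10 cases where an LPS-treated and a medium-treated array of a genotype carried the same letter, the mice also had the same labelled age. Mrc1 lay between 9.25 and 9.73 on all 6 arrays with the letter a, which include every genotype and treatment, and between 10.7 and 12.5 on those with c and 11.0 and 12.1 on those with e, while on arrays with b it was 9.72 and 8.88 in MK2-/- and 11.0 to 11.5 in wt and MK2/3-/- BMDM. In each of the 5 groups with such an array Chil3 was highest with the letter b, by 1.37 compared with a after accounting for the 6 groups. With the letter as an additional term, chosen after these values had been seen, Chil3 and Mrc1 were called for the letter (F = 33.0, adjusted p = 0.000773, and F = 18.7, adjusted p = 0.00728), beside 1.36% of all probes and none of the other 10 probes of the set.

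The means of some marker lists also differed between letters, in ranges that were not adjusted for group and partly overlapped. Single genes of a list could spread more widely, as S100a8 of the neutrophil list did, from 8.93 to 11.9 with b and from 7.90 to 13.1 with a. The mean log2 signal of 7 neutrophil markers, of which 5 were well above background on all arrays and none was below it throughout, ranged from 8.59 to 9.76 on the arrays with b, from 7.30 to 8.28 with a, from 6.30 to 8.45 with c and from 7.40 to 8.78 with e. The mean of 5 stromal markers ranged from 8.92 to 9.83 with e, from 7.27 to 8.72 with c, from 5.85 to 7.14 with b and from 5.82 to 10.7 with a, while that of the macrophage markers ranged from 14.3 to 15.5 over all arrays. The part of these cells, of age or of the experiment in the letter pattern was not tested. Il4ra did not share the pattern, with an adjusted p of 0.947 for the letter.

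**Figure D4:**
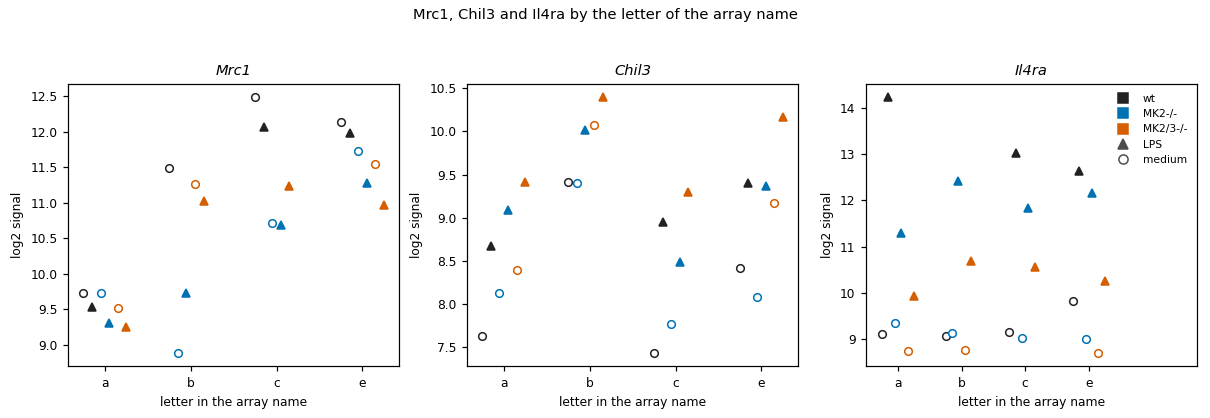
Log2 signal of Mrc1, Chil3 and Il4ra (brighter probe) by the letter of the array name. Colours give the genotype, triangles LPS and open circles medium. Mrc1 is between 9.25 and 9.73 on all 6 arrays with the letter a, Chil3 is high on the 5 arrays with b, and Il4ra separates by treatment and genotype instead.

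Genes with the most similar course over the 22 arrays were listed as a description, and the Pearson correlations include the step between LPS-treated and medium-treated arrays. The brighter Il4ra probe was followed most closely by Tha1 (r = 0.97), Rnd1 (0.97) and the acute-phase gene Saa2 (0.96), whereas the second probe was followed by Med13 (0.97), Yipf2 (0.97) and Golga7b (0.97). Il13ra1 went with Cd86, the costimulatory ligand of CD28 (0.98), Mcur1 (0.97) and Tagap (0.97), and Il2rg with Ikbke, a kinase of interferon induction (0.97), Diaph1 (0.96) and Zc3hav1 (0.96). Stat6 went with Plekhm2 (0.93), Cyp27a1 (0.92) and Aup1 (0.92). Among the target genes, Chil3 went with Camp, a neutrophil granule peptide (0.85), Lefty2 (0.82) and Erc2 (0.81), Mrc1 with Ly86 (0.88), F13a1 (0.82) and P2ry12 (0.81), Arg1 with Mpzl1 (0.88), Abhd14a (0.88) and Qpctl (0.84), Ccl24 with Vnn3 (0.85), Cnppd1 (0.84) and Smarca5-ps (0.84), and Retnla with Klk1b24 (0.79), Fras1 (0.76) and Scn10a (0.75). F13a1, which encodes a coagulation factor chain of macrophages, ran from 6.42 to 8.64 on arrays with a, from 11.3 to 12.3 with c and from 10.4 to 12.0 with e. On arrays with b it was 6.84 to 9.12 and thus low in all genotypes, unlike Mrc1.

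Of 55 further genes of the pathway, listed by role, 51 were tested. In wt BMDM LPS raised 18 and lowered 6 of them, compared with 22 higher and 7 lower for MK2-/- and 21 higher and 8 lower for MK2/3-/- BMDM, with medians of 0.25, 0.45 and 0.42 on the log2 scale, beside 44.2%, 47.8% and 51% of all genes called in either direction and medians near 0. No gene of these lists was called in any difference of the LPS response between genotypes (limma), and 4, 3 and 4 of 51 had an unadjusted p below 0.05 for MK2-/- against wt, MK2/3-/- against wt and MK2/3-/- against MK2-/-. Of all 28136 probes, 2167, 3337 and 2464 did. Under LPS, 1 gene of these lists was called higher and 2 lower in MK2-/- than in wt BMDM. In MK2/3-/- BMDM 2 were higher and 3 lower than in wt, and 1 was higher and 3 lower than in MK2-/-. Of all genes, 11.6%, 24.9% and 13.3% were called in these comparisons. Of the ligands, Il4 fell by 1.16, 1.21 and 1.31 in wt, MK2-/- and MK2/3-/- BMDM, the decoy receptor Il13ra2 was not called, and Il13 was not tested since it did not pass the filter on dim signals.

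Of 15 kinases, adaptors and inhibitors, 8 rose and 1 fell in wt BMDM. Jak2, a kinase that can bind the IL-13Rα1 chain, rose by 3.86 (SE 0.23, adjusted p = 5.54e-10), and the feedback inhibitors Socs3, Socs1 and Cish rose by 6.69, 6.05 and 4.81. Socs3 ran from 9.58 to 13.2 in medium-treated and from 17.5 to 17.6 in LPS-treated wt BMDM, where the highest medium-treated array was again replicate 4. Socs5, reported as an inhibitor of IL-4 signalling, fell by 1.18 in wt. Under LPS it was 8.47, 8.18 and 7.81 in wt, 10.2, 9.37, 9.09 and 8.72 in MK2-/- and 9.11, 7.50, 7.19 and 7.47 in MK2/3-/- BMDM, where it was lower than in MK2-/- BMDM (log2 difference -1.53, SE 0.37, adjusted p = 0.00971). This call was lost with only the groups compared in the fit (adjusted p = 0.109) and with the methods' t-test (adjusted p = 0.203). Cish, named after its values were seen, was in medium well above background on all 4 wt and all 4 MK2-/- arrays and on 0 of 3 MK2/3-/- arrays (1.99, 2.19 and 3.84). In medium-treated MK2/3-/- BMDM it was lower than in wt (log2 difference -3.47, SE 0.51, adjusted p = 0.00373) and lower than in MK2-/- BMDM (log2 difference -2.29, SE 0.51, adjusted p = 0.0172). No fold is given, since no MK2/3-/- array had a measured level there.

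Among 9 partners and co-regulators of STAT6, the histone demethylase Kdm6b rose in wt BMDM by 3.44 (SE 0.30, adjusted p = 3.97e-08), while the nuclear receptor Pparg fell by 2.61 (SE 0.33, adjusted p = 3.21e-06). Pparg lay between 12.4 and 13.1 in medium-treated and between 9.75 and 10.5 in LPS-treated wt BMDM. Egr2 was 8.22, 9.49 and 8.35 in LPS-treated wt and 10.5, 10.7, 9.91 and 10.1 in LPS-treated MK2/3-/- BMDM (log2 difference 1.62, SE 0.52, adjusted p = 0.0301). Without wt replicate 1 or 3, or without MK2/3-/- replicate 1 or 2, this call was lost (log2 differences 1.38, 1.45, 1.56 and 1.47, adjusted p = 0.120, 0.101, 0.0633 and 0.0732). In medium, the group means of Egr2 were 10.5 in MK2/3-/- and 8.95 in wt BMDM, a difference of the same sign that was not called. Bhlhe40 was higher in MK2-/- than in wt BMDM under LPS by 1.35 (SE 0.41, adjusted p = 0.0427), with all 4 MK2-/- arrays at 9.27 or above and all 3 wt arrays at 8.87 or below. This call was lost without any 1 of 8 arrays, with log2 differences between 1.11 and 1.57.

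Ppargc1b, a co-activator of nuclear receptors, was well above background only in wt BMDM, on 2 of 3 LPS-treated arrays (2.69, 5.24 and 5.76, the first not above background) and 3 of 4 medium-treated arrays. Under LPS it was at least 4.78-fold lower in MK2-/- (log2 difference -2.55, adjusted p = 0.00581) and at least 3.05-fold lower in MK2/3-/- BMDM (log2 difference -1.73, adjusted p = 0.0211). The call in MK2/3-/- BMDM was lost without LPS-treated wt replicate 2 or 3 or MK2/3-/- replicate 3 (log2 differences -1.39, -1.13 and -1.45). It was not called for LPS in any genotype, with a log2 difference in wt of 0.03 (adjusted p = 0.975). In medium, the group means of Ppargc1b were 4.53 in wt, 2.01 in MK2-/- and 2.84 in MK2/3-/- BMDM. There it was called lower in MK2-/- than in wt BMDM, while MK2/3-/- against wt was not called.

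Of 25 other genes linked to alternative activation, 9 rose and 3 fell with LPS in wt BMDM. The rises included the IL-1 receptor antagonist Il1rn (6.57, SE 0.57), the anti-inflammatory cytokine Il10 (6.52, SE 0.48), the chemokines Ccl22 (6.47, SE 0.88) and Ccl17 (5.39, SE 0.73), the arginine transporter Slc7a2 (4.77, SE 0.47) and the second arginase Arg2 (2.43), and the falls included the scavenger receptor Stab1 (-1.91, SE 0.49, adjusted p = 0.00417) and the tyrosine kinase gene Matk (-1.50, SE 0.38, adjusted p = 0.00381). The Stab1 call was lost with scaling to the 75th percentile (log2 difference -1.22, adjusted p = 0.0761, limma) and with the methods' t-test (adjusted p = 0.0570). Members of this list thus moved in both directions, and Il10, Il1rn, Ccl17 and Ccl22 are also known as LPS-induced genes.

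Arg2 was the gene of these lists with the largest difference between LPS-treated genotypes. It was 9.83, 9.35 and 7.90 in wt, 8.01, 9.67, 7.91 and 7.71 in MK2-/- and 5.32, 6.50, 6.78 and 5.02 in MK2/3-/- BMDM. All MK2/3-/- arrays lay below all others. The level was lower than in wt (log2 difference -3.13, SE 0.62, adjusted p = 0.00165) and lower than in MK2-/- BMDM (log2 difference -2.42, SE 0.57, adjusted p = 0.00895). Arg1 was also called lower than in wt under LPS, but only 1 of 4 MK2/3-/- arrays had a measured level and the call was lost in several settings. With the methods' t-test neither Arg2 call passed (adjusted p = 0.0890 and 0.113), nor did any other genotype call under LPS named here from the pathway lists. In medium, the group means of Arg2 were 6.60 in wt, 6.03 in MK2-/- and 4.90 in MK2/3-/- BMDM, and no genotype difference was called there.

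Il10 was 13.5, 14.3 and 14.5 in LPS-treated wt, 11.6, 12.1, 12.7 and 13.7 in MK2-/- and 10.6, 11.8, 12.2 and 12.5 in MK2/3-/- BMDM. Compared with wt, it was lower in MK2/3-/- (log2 difference -2.32, SE 0.48, adjusted p = 0.00211) and in MK2-/- BMDM (log2 difference -1.55, SE 0.48, adjusted p = 0.0424), and the MK2-/- call was lost without any 1 of 9 arrays, with log2 differences between -1.62 and -1.23. Batf3, a transcription factor of dendritic cells, was higher in MK2/3-/- than in wt BMDM under LPS by 1.43 (SE 0.32, adjusted p = 0.00352), with values of 9.25, 8.86, 7.79 and 9.00 against 7.10, 7.62 and 7.16. This call was lost with only the groups compared in the fit (adjusted p = 0.0597) and with the methods' t-test (adjusted p = 0.120). Chil4, the neighbour and close relative of Chil3, was lower in MK2/3-/- than in MK2-/- BMDM under LPS (log2 difference -1.20, SE 0.38, adjusted p = 0.0417). One of the 4 MK2/3-/- arrays lay at 2.46, the others between 4.20 and 5.04, and the call was lost without that array (log2 difference -0.67, adjusted p = 0.0992) and without any 1 of 9 other arrays.

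**Figure D5:**
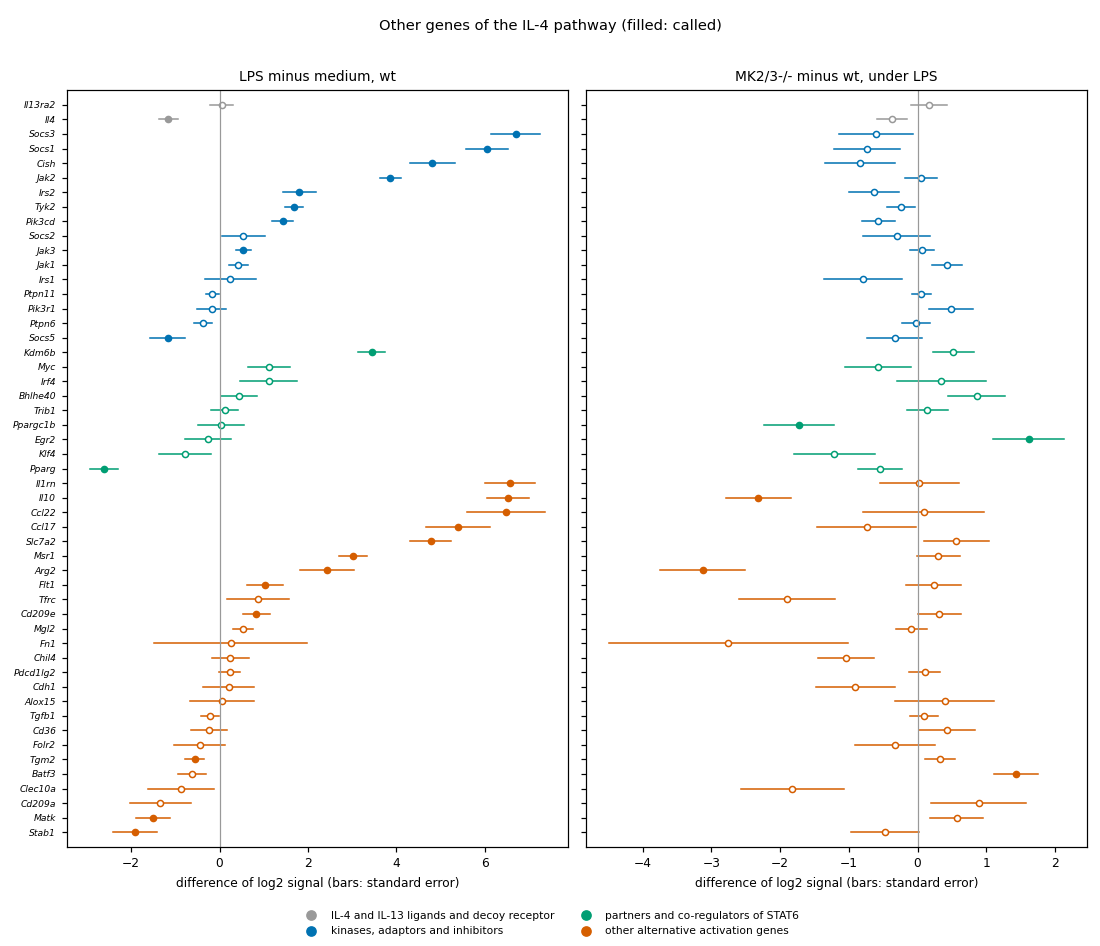
Log2 differences of the 51 other pathway genes for LPS against medium in wt BMDM (left) and for MK2/3-/- against wt BMDM under LPS (right), coloured by list, with standard errors as lines and filled dots for genes that passed the test. The left panel holds 18 filled dots above and 6 below 0, the right panel 2 above and 3 below 0, with Arg2 farthest to the left among the filled ones. Of all genes, 44.2% were called in the comparison on the left and 24.9% in that on the right.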

How the data were processed

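Total RNA of BMDM was labelled with Cy3 by the authors and hybridised to 22 Agilent 1-colour mouse arrays, 1 sample per array. The deposited scanner files hold spot intensity values (processed signal, background-corrected by Feature Extraction 11.0.1.1), and the deposited matrix holds the authors' log2 values after quantile normalisation and centring on the samples' median. It served as an alternative, and its columns correlated with the values computed here at r between 0.992 and 0.999. Of 62976 spots per array, 3671 control spots were left out, and any other spot with a non-uniformity or outlier mark was treated as missing. No spot of the 9 genes carried such a mark and none was saturated. The log2 processed signals were quantile normalised over the 22 arrays. Probes with an NCBI accession (29150 RefSeq, of which 27509 were named through the RefSeq genes of GRCm38.p6, and 3735 GenBank) were tested where 3 or more arrays had them well above background. The number of arrays limits the precision.

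The test was that of limma 3.58.1 (R 4.3.3, with data.table in version 1.17.8), with a mean for each of 6 groups, eBayes and Benjamini-Hochberg adjustment over all 28136 probes, and called at an adjusted p below 0.05. The script was tested on simulated data. The brightest probe stood for its gene in counts. Groups came from the sample labels, and per the methods the experiments were independent. No arrays of a group were duplicates, the smallest median absolute log2 difference being 0.247. The 9 genes and all lists were chosen with earlier results of these data known. Named besides the 9 genes were Mapkapk2 and Mapkapk3, pathway genes called between genotypes under LPS with at least 2-fold or in a difference of the response, the 3 largest rises and 3 largest falls in wt, and the 3 genes most correlated with each probe, while other pathway genes named are examples of a list's count. Promoter sequences are from RefSeq (GRCm38.p6). From the pathway lists, 1 gene was left out and is not reported here. Alternatives covered scaling, background, the filter on dim probes, marked spots, the choice of probe, array weights, the methods' t-test, replicate blocks and leaving out arrays. The normexp alternative (offset 50) used the median spot signal.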

Additional observations from a re-analysis of the deposited data

Results flagged for a closer look

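In the groups of 4 arrays, the array farthest from its group was compared with the range of the group for each of the 12 probes (48 tests, Dixon's test at the 95% level). There were 4 such arrays, and chance marks about 1 in 20 groups. Il4ra on its brighter probe was 9.82 on medium-treated wt replicate 4, compared with 9.07 to 9.15 on the other 3, and this is the array with the high Il6 signal. Il13ra1 was 6.54 on medium-treated MK2-/- replicate 2, compared with 7.16 to 7.26 on the others. Retnla was 2.01 on medium-treated MK2-/- replicate 3, compared with 4.04 to 4.17, and only 1 of these 4 arrays was well above background. Mrc1 was 9.25 on LPS-treated MK2/3-/- replicate 1, compared with 10.97 to 11.24, and this array carries the letter a, with which Mrc1 lay between 9.25 and 9.73 in every group. The Il4ra response to LPS on the brighter probe differed between MK2/3-/- and wt BMDM by -2.38 on the log2 scale in the test of the difference itself.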

How the results depend on the processing

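Of 27 probe comparisons called among the 9 genes, 14 were called in each of up to 40 settings, and none changed direction in any of them. Genotype calls under LPS numbered 7, and 2 when only the groups compared were fitted, 0 with the methods' t-test and 3 to 8 when 1 array was left out (3 without LPS-treated wt replicate 1, 4 without replicate 2). Genotype calls in medium numbered 0, and 2 with scaling to the 75th percentile (both Retnla, which was not well above background in wt), 1 with array weights, 1 with only the groups compared and 0 to 0 with 1 array left out. The difference of the LPS response was called for 1 gene, and for 0 with only the groups compared, without the arrays that stood apart and with the mean of a gene's probes, and for 0 to 1 with 1 array left out. LPS response calls numbered 13 (12 to 15 with 1 array left out), and pathway genes called in wt 24 (19 to 25). The probe difference of Il4ra between MK2/3-/- and wt BMDM under LPS (-2.76) was not called with only the groups compared (-2.76, adjusted p = 0.115) or the methods' t-test (-2.76, adjusted p = 0.208), and ranged from -3.49 to -2.34 with 1 array left out. The causes were not tested. By the methods' rule for choosing a probe, Stat6 was not called in any genotype. Scaling to the 75th percentile moved the median of all tested probes to 0.25, 0.24 and 0.26 for LPS in the 3 genotypes. For MK2/3-/- against wt BMDM under LPS it moved this median from -0.06 to 0.13. In that comparison Arg1 moved from -2.45 to -1.56 and Ppargc1b from -1.73 to -0.90, and both calls were lost. Calls of Stat6, Il13ra1, Chil4 and Stab1 were lost with that scaling as well.

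The array-name letter did not meet the criterion for pairing, since 7 of 10 same-letter pairs correlated above 0.1 (range -0.075 to 0.42), although 16 of 20 arrays correlated best with their own letter, and the replicate number of the titles gave 7 of 10. With a replicate block by number or by letter within genotype (consensus correlation 0.118 and 0.143), LPS response calls numbered 14 and 14, genotype calls under LPS 6 and 6, and the difference of the response 1 and 1. With the letter as a fixed block across genotypes, chosen after seeing the data, the LPS rise of Chil3 was 1.1, 0.89 and 0.81 in wt, MK2-/- and MK2/3-/- BMDM and was called (adjusted p = 0.000447, 0.000866 and 0.00368).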
